A study of Mus musculus with 75 samples.

Results

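The mitochondrial respiratory chain is built from the products of 2 genomes. Complexes I, III and IV and the ATP synthase (complex V) join subunits made in the cytosol from nuclear genes with a core set of subunits encoded on the mitochondrial DNA, whereas complex II is encoded by nuclear genes alone. Electrons from NADH enter at complex I and those from succinate at complex II, pass through complexes III and IV to oxygen, and the proton gradient built on the way drives ATP synthesis at complex V. In the lung, type 2 alveolar epithelial (AT2) cells, which make surfactant, are known for their many mitochondria.

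The genes described here were chosen by symbol in Ensembl release 96. They were the protein-coding genes that begin with Ndufa, Ndufb, Ndufc, Ndufs or Ndufv, the 4 Sdh genes, and those that begin with Uqcr, Cox4 to Cox8 or Atp5, together with the protein-coding genes of the mitochondrial DNA. The rule found 107 genes among the 55536 of the table, of which 94 were nuclear and 13 mitochondrial. By role, the nuclear genes comprised 36 of complex I, 4 of complex II, 8 of complex III, 19 of complex IV, 17 of complex V and 10 that are assembly or other factors and not subunits (Ndufaf1 to Ndufaf8, Cox7a2l and Atp5s). Ndufa4 and Ndufa4l2 were placed with complex IV, where the Ndufa4 protein is known to reside. The mitochondrial genes comprised 7 of complex I, 1 of complex III, 3 of complex IV and 2 of complex V.

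RNA was sequenced from the inferior lung lobe of 75 male C57BL/6JRj mice, with no transgene or deletion in any group. BLEO-IPF mice, aged 12 to 14 weeks at dosing, received bleomycin sulphate once into the trachea, and only those that had lost 5 to 17% of their body weight by day 6 entered a study group. They were killed on day 7 (n = 10), days 14, 21, 28 and 35 (n = 12 each) or day 42 (n = 7), and were compared with 10 control mice (CTRL), which the sample labels call saline and the treatment protocol calls untreated. The model is a single injury in a whole lobe, so fewer cells of a type and less RNA per cell cannot be told apart in any value below. Total counts ranged from 9240291 to 14665247 per mouse, and levels are given as CPM, which are counts scaled to library size by TMM.

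The lobe carried the defining markers of lung, with the summed CPM of 6 AT2 genes between 22072 and 26963 in CTRL mice. The median of that sum was 24213 in CTRL mice and 12445 on day 14, when it ranged from 6169 to 22979, and it was 27775 on day 42. The 5 markers of monocyte-derived macrophages were all called higher on day 14, the 4 markers of cycling cells likewise, and 4 of 5 endothelial markers were called lower. All 5 markers of ciliated cells, all 3 of B cells and all 3 of red blood cells were also called lower on day 14, with median log2FC of -1.08, -1.35 and -1.02. Their part in the results below was not tested. Library 10 of day 28 stood apart through muscle genes, with 1715 CPM of skeletal muscle markers against 18.6 at most in the other 11 mice of that day. Library 3 of day 7 had the highest share of counts on the nuclear respiratory chain genes, 0.859% of all counts. Results that rest on either are given with and without it.

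The median log2 fold changes of the 2 genomes lay on opposite sides of 0 on all 6 days after bleomycin. All 6 comparisons used the same CTRL mice, so the days are not independent results. The number of nuclear genes called depended on the day and on whether a length index of each library, described below, was in the fit. Of the 91 nuclear genes that could be tested, 70 were called higher and none lower on day 7, and 63 were called higher and 3 lower on day 14 (edgeR quasi-likelihood F test, Benjamini-Hochberg adjusted p under 0.05 over 16221 genes). Among all genes tested, 24.9% were called higher and 20.9% lower on day 7, and 32.4% and 29.9% on day 14. The nuclear count was 57 higher and 1 lower on day 21, where the background was 28.3% and 25.8%, and 53 higher and none lower on day 28, where it was 24.1% and 19.2%. It was 14 higher on day 35, a smaller share than the 16.9% of all genes called higher, where 13.1% were called lower. It was 30 higher on day 42, against 13.7% and 11%. No nuclear gene was called lower on either day. These counts changed when the length index was added to the fit, as described below. They were then 6 higher and 6 lower on day 35 and 2 higher and 2 lower on day 42. The median log2 fold change (log2FC) of the nuclear genes was 0.34, 0.30, 0.26, 0.24, 0.13 and 0.22 on the 6 days in turn, while that of all genes tested lay between 0.00 and 0.02.

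Of the 7 mitochondrial genes that could be tested, the numbers called lower on the 6 days in turn were 1, 7, 5, 3, 3 and 1, and none was called higher on any day. Their median log2FC was -0.20, -0.49, -0.40, -0.24, -0.27 and -0.24. On day 7 the 1 gene called was a smaller share than the 20.9% of all genes called lower. The counts of days 7, 28, 35 and 42 varied by more than 1.5 times with the settings or with the mice included, as given in the closing section, and the direction of the medians did not.

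**Figure D1:**
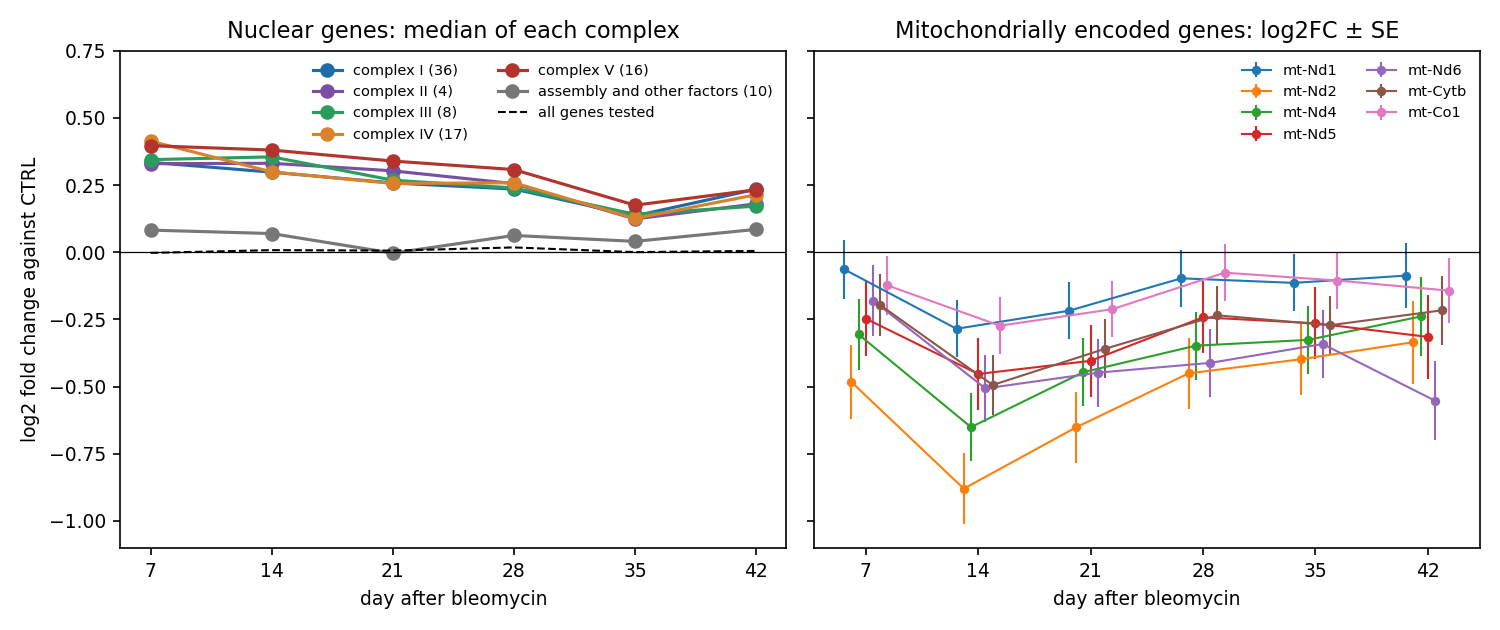
Log2FC against CTRL by day after bleomycin (x axis). The left panel gives the median over the tested nuclear genes of each complex (number of genes in brackets) and, dashed, over all genes tested; the right panel gives each mitochondrial gene with its standard error, points being shifted sideways for legibility. The complexes lie above 0 on every day with a lowest value on day 35, the assembly and other factors stay near 0, and all 7 mitochondrial genes lie below 0, mt-Nd2 lowest of them on day 14 at -0.88.

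The same contrast was present in the counts of single mice. Genes of the mitochondrial DNA took 1.52 to 1.96% of all counts in CTRL mice, with a median of 1.79%, and 0.805 to 1.64% on day 14, with a median of 1.37%. Nuclear respiratory chain genes took 0.467 to 0.591% in CTRL mice, with a median of 0.519%, and 0.532 to 0.726% on day 14, with a median of 0.603%. The 2 groups therefore overlapped in each share taken alone. Mitochondrial counts per nuclear count ranged from 2.73 to 3.89 in CTRL mice and from 1.19 to 2.65 on day 14, so that every day 14 mouse lay below every CTRL mouse. The median of this ratio was 3.38 in CTRL mice and 2.29, 2.26, 2.29, 2.48, 2.80 and 2.67 on the 6 days in turn, and apart from day 14 each day overlapped the CTRL range. The 2 ribosomal RNA genes of the mitochondrial DNA, which are not members, took 0.0989 to 0.130% of counts in CTRL mice and 0.0602 to 0.0953% on day 14, also without overlap. The ratio compares genes within a library and is free of the scaling between libraries. It is not free of the length index described below, which the mean log2 CPM of the nuclear genes followed with r of 0.90. That of the mitochondrial genes gave r of -0.22. The ratio was not adjusted for the index.

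**Figure D2:**
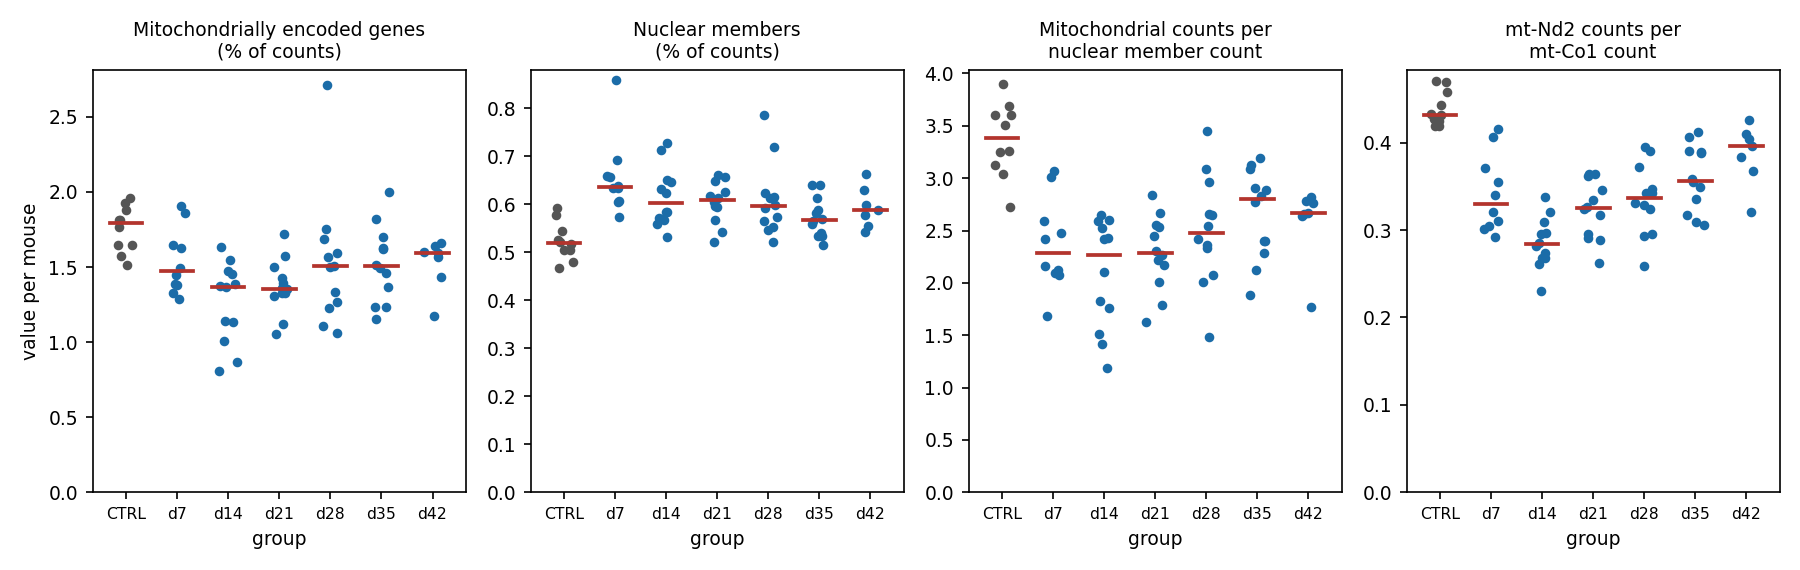
Quantities per mouse (y axis, starting at 0) in CTRL mice and on each day (x axis), with red bars at group medians. From left to right they are the percent of counts on mitochondrial genes, the percent on nuclear respiratory chain genes, the ratio of the former to the latter, and mt-Nd2 counts per mt-Co1 count. The ratio of the 2 genomes is below the CTRL range in all 12 mice of day 14, and mt-Nd2 per mt-Co1 is below it in every mouse of days 7 to 35.

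Only 7 of the 13 mitochondrial genes were usable. The genes mt-Nd3, mt-Nd4l, mt-Co2, mt-Co3, mt-Atp6 and mt-Atp8 had between 0 and 2 counts in any library, although their messages are neighbours of the abundant ones. Of these, 5 have an annotated copy of at least 99.7% identity in a block of nuclear pseudogenes on chromosome 1, between 24611535 and 24616197 (GRCm38), and 97.8 to 99.9% of the 75-base stretches of their transcripts also occur in that copy. The exception, mt-Atp8, has no annotated copy. The copies themselves had at most 3 counts in any library, and how reads that match several places were treated is not given in the sources used here. Zero counts of these 6 genes therefore say nothing of their level, and complex V has no mitochondrial gene that could be followed. The start of mt-Atp6, at chrM:7927-8001 on the plus strand, is shown beside the start of its copy Gm10925, at chr1:24614577-24614651 on the minus strand, because the 75 bases (the length of a read) are the same in both.
mt-Atp6: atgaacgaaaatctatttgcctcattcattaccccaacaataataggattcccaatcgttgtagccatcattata
Gm10925: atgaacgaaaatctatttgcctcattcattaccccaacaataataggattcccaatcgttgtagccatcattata
For mt-Nd3, the first 41 bases at chrM:9459-9499 (plus strand) and those of Gm28438 at chr1:24613079-24613119 (minus strand) hold the only base in which the 345 aligned bases differ, given in capitals, which is T3C with the gene's base first and positions counted from its start.
mt-Nd3: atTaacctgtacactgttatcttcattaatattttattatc
Gm28438: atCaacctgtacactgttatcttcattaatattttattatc
Among the counted genes, mt-Nd4 shares 61.5% of its 75-base stretches with a copy in the same block. For mt-Co1 the share is 39.8%, over 2 other annotated genes, of which Gm29216 lies in the block. The genes mt-Nd2 and mt-Nd5 share 5.71% and 1.66% with other genes, and mt-Nd1, mt-Nd6 and mt-Cytb none. This sharing leaves the levels of mt-Nd4 and mt-Co1 less certain than those of the other 5.

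On day 14 the log2FC of the mitochondrial genes ranged from -0.88 to -0.27. The lowest was that of mt-Nd2, a core membrane subunit of complex I, which had 1728, 2056 and 2370 CPM (lowest, median and highest mouse) in CTRL and 639, 1233 and 1441 on day 14. Every day 14 mouse was below every CTRL mouse. Its log2FC on day 14 was -0.88 ± 0.13 (SE; edgeR adjusted p = 4.74e-08). The values of the 6 days in turn were -0.48, -0.88, -0.65, -0.45, -0.40 and -0.33, of which the last did not pass the test (adjusted p = 0.102). The subunit gene mt-Nd4 had 1510, 1747 and 1978 CPM in CTRL and 598, 1181 and 1453 on day 14, again without overlap, and a log2FC of -0.65 ± 0.13 (adjusted p = 9.80e-06). Cytochrome b (mt-Cytb), the mitochondrial subunit of complex III, had 3566, 4227 and 4576 CPM in CTRL and 1804, 3288 and 3775 on day 14, when 10 of 12 mice were below all CTRL mice, and its log2FC was -0.49 ± 0.11 (adjusted p = 9.15e-05).

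The values nearest 0 on day 14 were those of mt-Nd1 and mt-Co1. The complex I gene mt-Nd1 had 1915, 2268 and 2630 CPM in CTRL and 1279, 1889 and 2274 on day 14, with a log2FC of -0.28 ± 0.11 (adjusted p = 0.0161). The catalytic subunit of cytochrome c oxidase, mt-Co1, had 4121, 4809 and 5173 CPM in CTRL and 2677, 4073 and 4986 on day 14, with a log2FC of -0.27 ± 0.10 (adjusted p = 0.0201). Both groups of both genes overlapped. For mt-Nd5 the log2FC on day 14 was -0.45 ± 0.13 (adjusted p = 0.00250).

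The gene mt-Nd6, the only protein-coding gene on the other strand of the mitochondrial DNA, had far lower CPM than the other tested genes. It had 26.1, 34.3 and 56.2 CPM in CTRL, 16.7, 26.4 and 28.5 on day 14 and 16.4, 26.7 and 30.2 by day 42. Neither day was clear of the CTRL range. Its log2FC was -0.51 ± 0.13 on day 14 (adjusted p = 0.000395) and -0.55 ± 0.15 on day 42 (adjusted p = 0.00403), the only mitochondrial call of day 42. Its span overlaps the end of mt-Nd5 on the opposite strand, and whether reads were counted by strand is not given in the sources used here. The libraries were made from poly(A) RNA, and how well this message was captured was not measured. Its low CPM therefore need not be its level, and its calls may depend on capture.

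The make-up of the mitochondrial messages also differed between the groups. The share of mt-Nd2 in the summed counts of the 7 genes ranged from 11.3 to 12.5% in CTRL mice and from 7.60 to 9.97% on day 14. The share of mt-Co1 went the other way, from 26.3 to 27.1% in CTRL mice and from 29.5 to 33.1% on day 14. Counts of mt-Nd2 per mt-Co1 count ranged from 0.419 to 0.471 in CTRL mice and from 0.230 to 0.338 on day 14, and were below the CTRL range in all 10 mice of day 7, all 12 mice each of days 14, 21, 28 and 35 and 6 of 7 mice of day 42. This ratio was chosen after the values of both genes were seen and is given as a description. Its median was 0.432 in CTRL mice and 0.330, 0.284, 0.325, 0.337, 0.357 and 0.397 on the 6 days in turn.

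**Figure D3:**
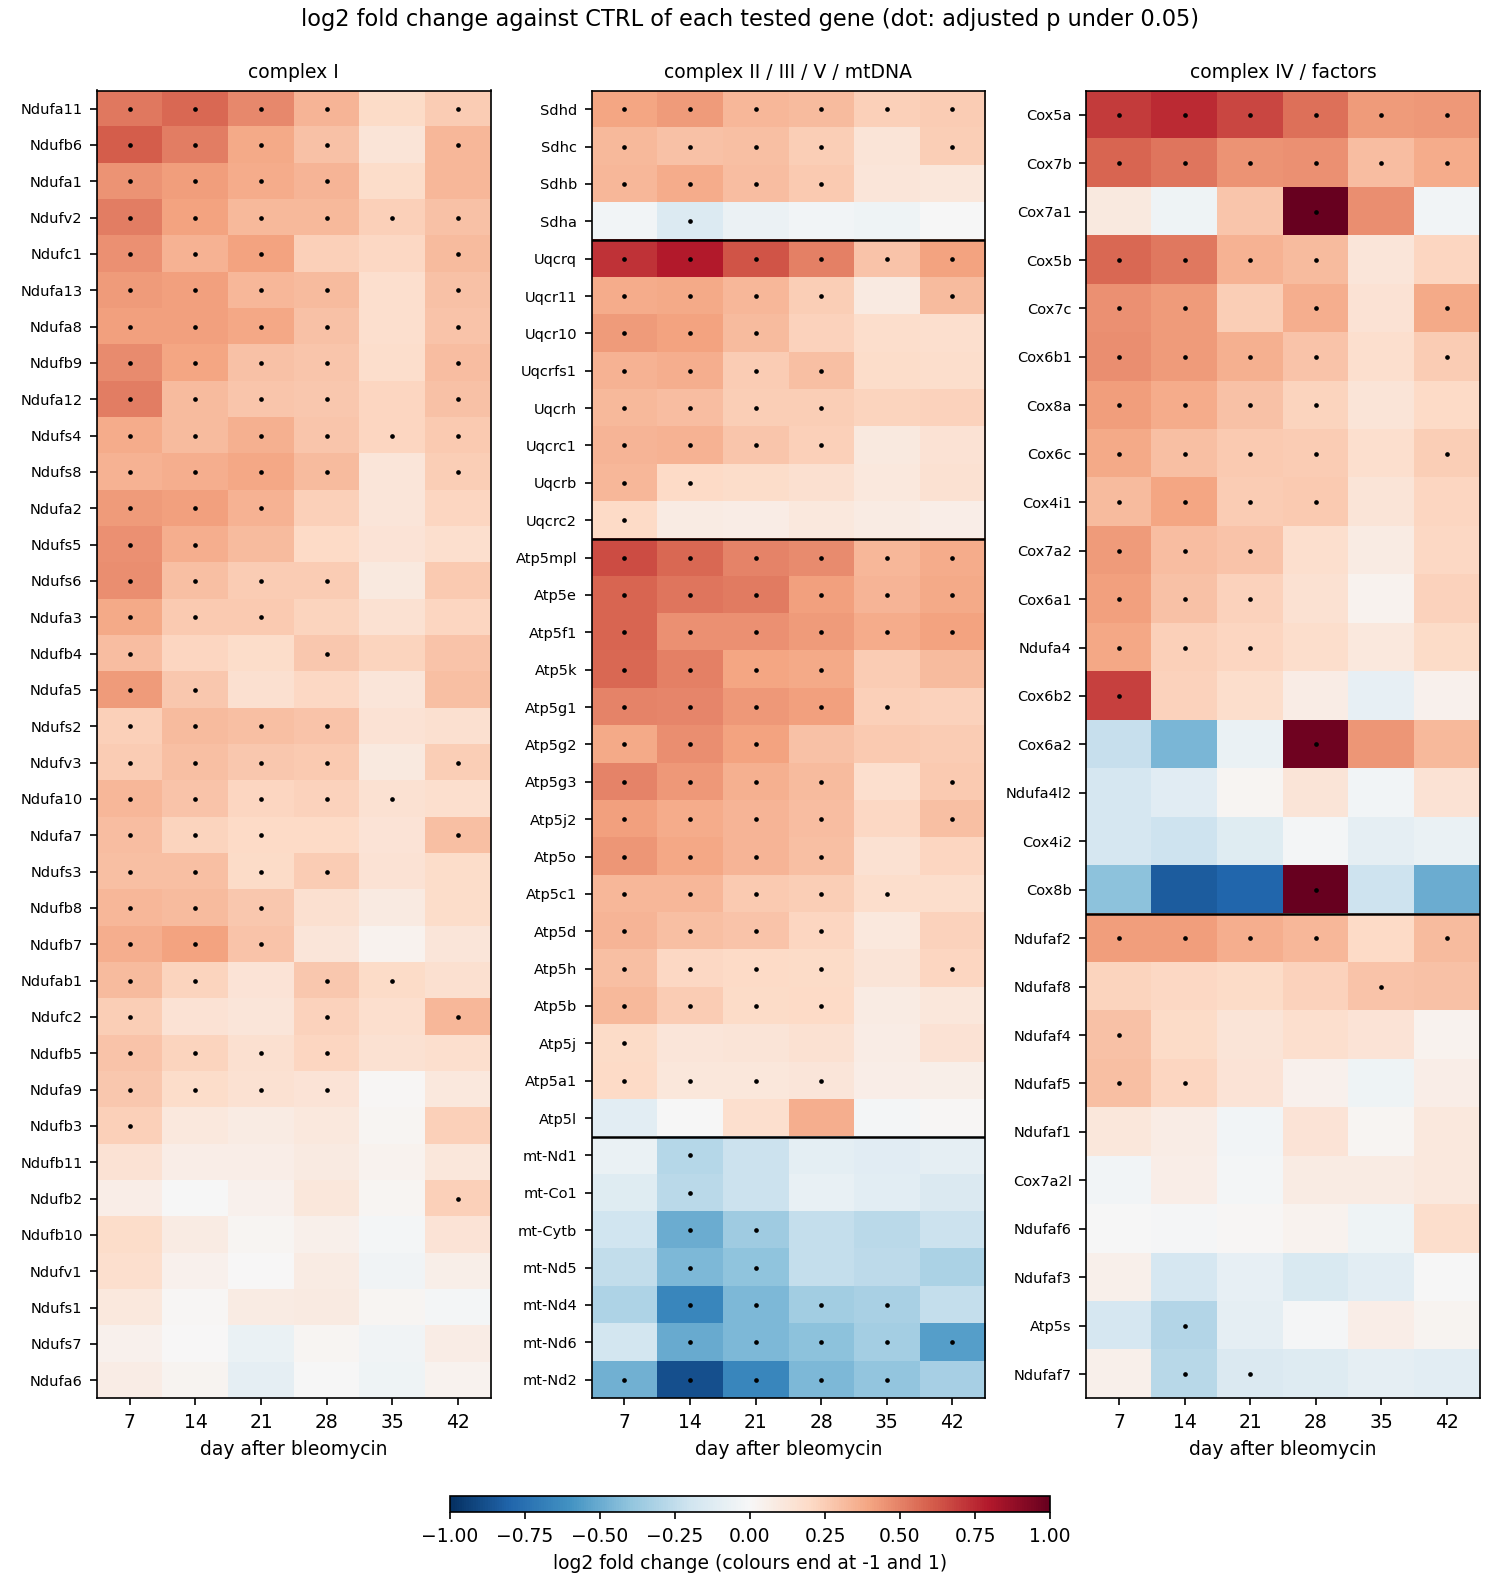
Log2FC against CTRL (colour, ending at -1 and 1) of the 91 tested nuclear and 7 tested mitochondrial genes (rows, ordered by their mean within each block) on the 6 days (columns), with a dot where the adjusted p was under 0.05. Most nuclear rows are red, strongest in Cox5a and Uqcrq, the mitochondrial rows are blue, and the 3 dark cells of day 28 in Cox7a1, Cox6a2 and Cox8b rest on 1 library.

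In the fit without the length index described below, the nuclear genes of all 5 complexes had medians above 0 on day 14. On day 14, 26 of 36 complex I genes, 3 of 4 complex II genes, 7 of 8 complex III genes, 11 of 17 complex IV genes and 14 of 16 complex V genes were called higher, with medians of 0.30, 0.33, 0.36, 0.30 and 0.38. The 10 assembly and other factors had 2 genes called higher and 2 lower and a median of 0.07. On day 42 the counts were 14 of 36, 2 of 4, 2 of 8, 5 of 17 and 6 of 16, and 1 of the 10 factors, where 13.7% of all genes were called higher. With the index, 41 of the 91 nuclear genes were called higher and 11 lower on day 14, and 2 and 2 on day 42. Counts by complex with the index are not given. No difference between complexes was tested. Of the 91 genes, 75 were called higher on at least 1 day and 3 lower, where the shares over all genes tested were 39.6% and 36.6%. The genes called higher on all 6 days were 9 of the 91, a share near the 8.33% of all genes. They were Ndufs4, Ndufv2, Sdhd, Uqcrq, Cox5a, Cox7b, Atp5e, Atp5f1 and Atp5mpl. Another 13 were called on none, against 24.4%. These are counts without the index. With it 2 nuclear genes were called higher on day 42, so at most 2 could stay called higher on all 6 days. The log2FC was lowest on day 35 in 62 of the 91 genes, in 61 without library 3 of day 7 and in 38 with the length index described below. It was highest on day 7 in 60 genes and on day 14 in 15. Without library 3 of day 7 these numbers were 25 and 38, and with the length index 28 and 31. The day of the highest value therefore depends on that library and on the index.

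In complex I, the largest nuclear change of day 14 was in Ndufa11, an accessory membrane subunit. It had 20.2, 23.9 and 29.7 CPM in CTRL, 27.8, 34.9 and 45.3 on day 14 and 26.1, 28.3 and 33 on day 42. On day 14, 11 of 12 mice were above all CTRL mice, and the log2FC was 0.57 ± 0.08 (adjusted p = 1.18e-08), against 0.25 ± 0.09 on day 42 (adjusted p = 0.0371). The lowest of complex I on day 14 was Ndufb2 at -0.01 ± 0.07 (adjusted p = 0.952), which was called higher on day 42 at 0.23 ± 0.08 (adjusted p = 0.0343). Ndufa1 had the highest value of day 42, 0.34 ± 0.13, without passing the test (adjusted p = 0.0515), and Ndufs1, the iron-sulphur subunit that is among the largest of the complex, the lowest, -0.02 ± 0.06 (adjusted p = 0.876). Among the factors, Ndufaf2 was the highest on day 14, at 0.42 ± 0.10 (adjusted p = 0.000310), although 63.2% of its 75-base stretches also occur in other annotated transcripts and its counts are uncertain. Ndufaf7, a methyltransferase needed to build the complex, was the lowest of the Ndufaf genes, at -0.28 ± 0.06 (adjusted p = 5.91e-05). Ndufaf7 had 23.7, 27.9 and 29.8 CPM in CTRL and 20.2, 22.4 and 26.4 on day 14, with 10 of 12 mice below all CTRL mice.

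Complex II split. The flavoprotein gene Sdha, which carries the catalytic subunit, had 262, 281 and 299 CPM in CTRL and 215, 259 and 278 on day 14, with 8 of 12 mice below all CTRL mice, and fell by -0.14 ± 0.05 on the log2 scale (adjusted p = 0.00709). The iron-sulphur subunit gene Sdhb had 56.1, 58.7 and 66.4 CPM in CTRL and 66, 74.8 and 94.1 on day 14, with 11 of 12 mice above all CTRL mice and a log2FC of 0.37 ± 0.07 (adjusted p = 7.03e-06). The membrane anchors Sdhc and Sdhd had log2FC of 0.29 ± 0.06 (adjusted p = 8.11e-05) and 0.42 ± 0.06 (adjusted p = 2.33e-08). By day 42 the log2FC was -0.00 for Sdha, 0.12 for Sdhb, 0.24 for Sdhc and 0.26 for Sdhd, and those of Sdhc and Sdhd passed the test.

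In complex III, Uqcrq, a small subunit beside cytochrome b, had the highest log2FC of any nuclear gene on day 14. It had 24.4, 31.3 and 38.7 CPM in CTRL, 42.1, 52 and 76.1 on day 14 and 37.8, 40.3 and 48.4 on day 42. All mice of days 7 and 14 were above all CTRL mice, as were 6 of 7 on day 42. The log2FC was 0.79 ± 0.10 on day 14 (adjusted p = 5.13e-10) and 0.41 ± 0.11 on day 42 (adjusted p = 0.00660). The core subunit gene Uqcrc2 had the lowest value of the complex on both days, 0.08 ± 0.06 (adjusted p = 0.218) and 0.07 ± 0.07 (adjusted p = 0.482).

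In complex IV, Cox5a, a nuclear subunit present in all tissues, had 42.3, 48.3 and 59.2 CPM in CTRL, 67.3, 75.9 and 111 on day 14 and 58.6, 64.9 and 75.1 on day 42. No mouse of days 7 and 14 overlapped CTRL. Its log2FC was 0.75 ± 0.09 on day 14 (adjusted p = 1.43e-10) and 0.43 ± 0.10 on day 42 (adjusted p = 0.00123). Cox7b had 0.53 ± 0.10 on day 14 (adjusted p = 1.81e-06). The lowest of the complex on days 14 and 42 was the muscle form Cox8b, at -0.83 ± 0.51 (adjusted p = 0.153) and -0.50 ± 0.59 (adjusted p = 0.570), on a median near 1 CPM in CTRL mice.

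Several complex IV subunits exist as a general and a tissue-bound form, and their calls differed, though no difference between forms was tested. Cox4i1, the general form of subunit 4, had 172, 203 and 246 CPM in CTRL and 216, 261 and 390 on day 14, with a log2FC of 0.39 ± 0.09 (adjusted p = 0.000246). Cox4i2, the form that lung is known to express and that responds to hypoxia, had 32, 38.6 and 49.7 CPM in CTRL and 22.3, 35.6 and 47 on day 14, with a log2FC of -0.21 ± 0.10 that did not pass the test (adjusted p = 0.0744). Ndufa4 had a log2FC of 0.24 ± 0.09 on day 14 (adjusted p = 0.0165) and its hypoxia-induced relative Ndufa4l2 one of -0.11 ± 0.10 (adjusted p = 0.336). Cox6b1 had 0.43 ± 0.09 on day 14 (adjusted p = 1.96e-05), while Cox6b2, known as the testis form, was called on day 7 alone. Cox6b2 had 6.98, 9.51 and 11.1 CPM in CTRL and 12.0, 13.7 and 20.3 on day 7, without overlap, and a log2FC of 0.68 ± 0.13 (adjusted p = 2.32e-05), against 0.23 ± 0.13 on day 14 (adjusted p = 0.116). The testis forms Cox7b2 and Cox8c had at most 2 and 1 counts in any library and could not be tested. Cox6a1, Cox7a2 and Cox8a, the general forms, had log2FC of 0.29, 0.31 and 0.37 on day 14 and all 3 passed the test. Cox7a2l, which is related to Cox7a2 and joins complexes into supercomplexes, had 0.06 ± 0.08 (adjusted p = 0.478).

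The muscle forms Cox6a2, Cox7a1 and Cox8b were called higher on day 28 alone, and that call came with the library that held muscle. On day 28 their log2FC was 0.97, 1.34 and 1.30 with adjusted p of 0.0193, 0.00101 and 0.0182 by edgeR. Library 10 of day 28 had 38.9 CPM of Cox6a2, 15.1 of Cox7a1 and 13.7 of Cox8b, where the medians of the other 11 mice were 5.13, 1.23 and 0.725 and the CTRL medians 4.33, 1.01 and 0.762. The next highest mouse for all 3 genes was number 11 of that day, at 13.2, 3.70 and 2.99 CPM. Without library 10 the log2FC were 0.39, 0.58 and 0.24 and none passed the test (adjusted p = 0.310, 0.0645 and 0.638 by edgeR). The same library had 584 CPM of the skeletal actin gene Acta1 against 0.635 at most in the other 11, and 771 CPM of the cardiac myosin gene Myh6 against 408 in number 11 and a median of 31.1. It also had the highest share of mitochondrial counts of day 28, 2.71% against 1.06 to 1.76% in the others. Without it, 5 rather than 3 mitochondrial genes were called lower on day 28, and the nuclear calls did not change by more than 1.5 times.

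**Figure D4:**
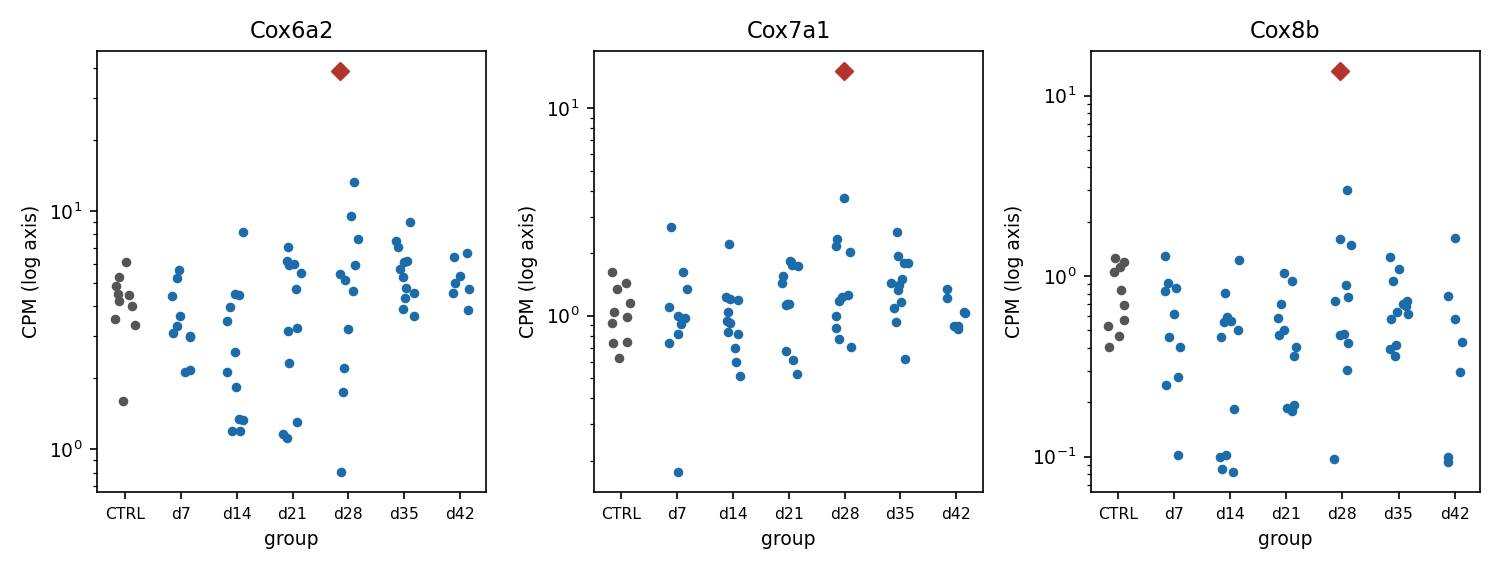
CPM (log axis) of the muscle forms Cox6a2, Cox7a1 and Cox8b in each mouse by group, with library 10 of day 28 as a red diamond; 1 day 21 mouse with 0 counts of Cox8b is not drawn. The diamond lies at 38.9, 15.1 and 13.7 CPM, above every other mouse in all 3 genes.

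In complex V, Atp5mpl, a small membrane subunit, was the highest on day 14 with 22.1, 23.6 and 31.1 CPM in CTRL and 27, 36.3 and 50.9 on day 14. Of the 12 mice 11 were above all CTRL mice, and the log2FC was 0.57 ± 0.10 (adjusted p = 5.71e-07). On day 42 the highest was Atp5f1, of the peripheral stalk, at 0.40 ± 0.08 (adjusted p = 0.000159). Atp5l was the lowest on both days, at -0.01 ± 0.18 and 0.01 ± 0.21, neither past the test (adjusted p = 0.982 and 0.969). The mature c-ring subunit is encoded by 3 genes, and Atp5g1, Atp5g2 and Atp5g3 had log2FC of 0.49, 0.47 and 0.43 on day 14, all called. Atp5s, a factor that couples the synthase, fell by -0.29 ± 0.09 on day 14 (adjusted p = 0.00542). The symbol Atp5o stands for 2 gene entries on chromosome 16, of which the longer-spanning one had 0 counts in every library.

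The promoters of the nuclear genes were searched for 3 short motifs, with no test of enrichment. RefSeq promoters (GRCm38.p6, 250 bases before to 50 after the start) were matched for 76 of the 94 genes. A gene was counted if any of its promoters held the motif, and the background was not matched for CG content. The core of the NRF1 motif, searched as GCATGCGC on both strands, was present in 12 of the 76 (15.8%) and in 3.94% of all 17492 protein-coding genes with a promoter. The YY1 core AGATGGCG was present in 9 of the 76 (11.8%) and in 2.80% of all, and the ETS core CCGGAAGT in 5 (6.58%) and in 5.69% of all. NRF1 and YY1 are known regulators of genes for mitochondrial proteins. The promoter stretches of 60 bases below are those of the 3 matched genes with the core before the start that had the highest log2FC on day 14, with the core in capitals as read on the gene's strand, at chr17:56717676-56717735 (plus strand), chr5:108434416-108434475 (minus strand) and chr15:102671056-102671115 (minus strand).
Ndufa11: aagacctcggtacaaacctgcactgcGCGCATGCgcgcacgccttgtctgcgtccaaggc
Atp5k: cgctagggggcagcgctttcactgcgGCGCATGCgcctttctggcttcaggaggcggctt
Atp5g2: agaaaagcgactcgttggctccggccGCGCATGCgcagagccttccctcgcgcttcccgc
The capitals read GCGCATGC, which is the searched core on the opposite strand. With the gc that follows them, each stretch also holds the core GCATGCGC on the gene's own strand. A match describes the sequence, and binding was not measured.

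Levels per kilobase were taken over the exons of all annotated transcripts of a gene, which can understate nuclear genes with several transcripts. The distance between the genomes and the medians of the complexes therefore depend in part on the annotation. On this scale the 2 genomes lay far apart. In CTRL mice, 6 of the 7 mitochondrial genes had medians of 1268 to 3695 CPM per kilobase, mt-Cytb being the highest, and mt-Nd6 had 66.1. The nuclear genes reached 159 at most, in Atp5a1, a catalytic-head subunit of complex V, followed by Atp5b with 136, Cox4i1 with 131 and Cox6a1 with 118. The medians of CPM per kilobase were 21.9 over the nuclear genes of complex I, 39.7 for complex II, 43.3 for complex III, 23 for complex IV, 26.3 for complex V and 5.79 for the factors.

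The nuclear result moved across libraries with an index built on exonic length. The 91 nuclear genes have 360 to 8086 bases of exon, with a median of 1587. Bases of exon were counted over all annotated transcripts of a gene and can exceed the length of the message expressed. Among tested protein-coding genes outside the respiratory chain, those with under 1500 bases of exon had median log2FC of 0.21, 0.18 and 0.15 on days 7, 14 and 42, those over 5000 bases had -0.07, -0.05 and -0.06, and 43.4% of the former and 27.9% of the latter were called higher on day 14. Among the nuclear members themselves, the 42 under 1500 bases had a median of 0.31 on day 14 with 29 called higher, and the other 49 a median of 0.30 with 34 called higher. This split need not sort the expressed messages of the members by length, and no conclusion is drawn from it. A length index was therefore computed for each library, after the data were seen, as the median centred log2 CPM of the 906 short genes minus that of the 6190 long genes, without the respiratory chain. Its median was -0.18 in CTRL mice and 0.07, 0.03, 0.05, -0.01, -0.03 and 0.05 on the 6 days in turn, and every range overlapped that of CTRL. Over the 75 mice the mean log2 CPM of the 91 nuclear genes followed the index with Pearson's r of 0.90 and Spearman's rho of 0.92 (permutation p = 1e-05 for each, two-sided, the smallest that 100000 permutations can give, and 2e-05 after Benjamini-Hochberg adjustment over the 2 relations computed). The r was 0.87 without the 2 mice farthest from the median index, 0.89 over deviations from the group means, and between 0.65 and 0.98 within single groups. The mean log2 CPM of the 7 mitochondrial genes gave r of -0.22 and rho of -0.19 (permutation p = 0.0569 and 0.104, the same after adjustment), -0.27 without those 2 mice and -0.08 over deviations from the group means, and r lay between -0.67 and 0.33 within single groups. Library 3 of day 7 had the highest index of all, 0.74.

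With the index as a covariate in the same edgeR fit, the share of nuclear genes called higher stayed above that of all genes on days 7, 14 and 28, lay near it on day 21 and was below it on days 35 and 42. The nuclear genes called higher on the 6 days in turn were 35, 41, 27, 36, 6 and 2 of 91, and the share of all genes tested called higher with the index was 22.1%, 31.4%, 27.1%, 23.4%, 17.4% and 11.4%. Those 41 of day 14 were all among the 63 called without the index. Nuclear genes called lower with the index numbered 8, 11, 9, 4, 6 and 2, and the share of all genes called lower was 17.4%, 28.9%, 24.4%, 18.8%, 13.3% and 8.19%. The median log2FC of the nuclear genes with the index was 0.11, 0.13, 0.08, 0.10, 0.02 and 0.05 on the 6 days. On day 14 Uqcrq had 0.55 ± 0.06 (adjusted p = 5.36e-11) and Cox5a 0.58 ± 0.07 (adjusted p = 9.94e-10), both smaller than without the index. Cox4i2 and Ndufa4l2, not called on day 14 without it, were called lower with it, at -0.43 ± 0.08 (adjusted p = 2.02e-06) and -0.30 ± 0.09 (adjusted p = 0.00236). For the mitochondrial genes, 6 of 7 were still called lower on day 14, all but mt-Co1, and mt-Nd2 had -0.86 ± 0.14 (adjusted p = 3.53e-07). The index can hold biology as well as RNA quality or library preparation, and these cannot be told apart here.

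**Figure D5:**
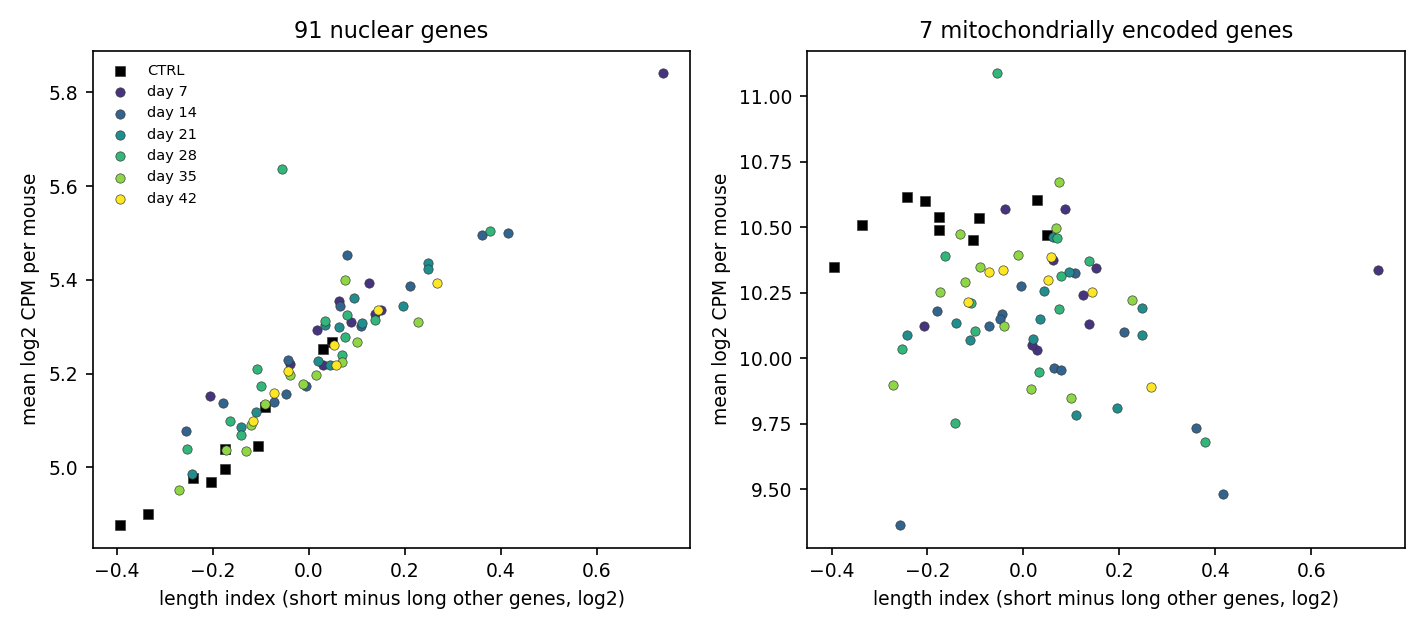
Mean log2 CPM per mouse of the 91 nuclear genes (left) and the 7 mitochondrial genes (right) against the length index of the library, in log2 units, with CTRL mice as black squares and BLEO-IPF mice as circles coloured by day. The nuclear mean climbs with the index in every group, with r of 0.90 over the 75 mice, and the mitochondrial mean gives r of -0.22 over all mice and from -0.67 to 0.33 within groups.

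Day 42 was compared directly with day 14. Among all genes tested 15.2% were called higher and 18.8% lower on day 42. Of the 91 nuclear genes 4 were higher and 8 lower, both smaller shares, with a median log2FC of -0.07. Genes named for an extreme value or a call on day 14 are compared here with the same day 14 mice. The direction of their difference was therefore favoured in advance. Lower on day 42 were Uqcrq (-0.39 ± 0.11, adjusted p = 0.00514), Ndufa11 (-0.32 ± 0.09, adjusted p = 0.00464), Cox5a (-0.31 ± 0.10, adjusted p = 0.0121) and Sdhb (-0.26 ± 0.08, adjusted p = 0.00896). Higher on day 42 were Sdha (0.14 ± 0.05, adjusted p = 0.0317) and Ndufaf7 (0.17 ± 0.07, adjusted p = 0.0438), 2 of the 3 nuclear genes that had been called lower on day 14, and the third, Atp5s, was higher too (0.32 ± 0.10, adjusted p = 0.0129). Of the 7 mitochondrial genes mt-Nd2 (0.55 ± 0.15, adjusted p = 0.00257) and mt-Nd4 (0.41 ± 0.14, adjusted p = 0.0174) were higher on day 42, and none was lower. All 6 AT2 markers were also called higher on day 42 than on day 14, with a median log2FC of 0.97, and their part in these values was not tested.

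Other mitochondrial and energy genes were followed as lists on day 14, against the backgrounds of that day given above. Of 77 mitochondrial ribosomal proteins tested, which make the ribosome that translates the mitochondrial messages, 52 were called higher and none lower, with a median log2FC of 0.24, from Mrpl20 at 0.66 to Mrpl42 at 0.15 among those called. Of 13 genes for import, porins and chaperones, 12 were called higher and none lower (median 0.24), from Timm23, a channel of the inner membrane, at 0.84 to Vdac1, a porin of the outer membrane, at 0.16. Of 27 genes for the transcription, RNA processing and replication of mitochondrial DNA, 4 were called higher and 8 lower (median -0.06), from Tbrg4 at 0.38 to Polg2, an accessory subunit of the mitochondrial DNA polymerase, at -0.51. Of 15 regulators of mitochondrial biogenesis, 4 were called higher and 9 lower (median -0.17), from Hif1a, the hypoxia factor, at 0.71 to the nuclear receptor Esrrg at -1.11.

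Among the partners of the chain, 4 of 7 other subunits and electron carriers were called higher and 1 lower (median 0.22), from Atpif1, the inhibitor of the synthase, at 0.52 to Dhodh at -0.26. Of 38 assembly factors outside the rule, 15 were called higher and 5 lower (median 0.10), from Uqcc2 at 0.61 to Lyrm7 at -0.51, both of complex III. Of 5 uncoupling proteins and adenine nucleotide carriers, 4 were called higher and 1 lower (median 0.42), from Slc25a5 at 0.50 to Ucp3 at -0.69.

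Lists upstream of the chain were counted in the same way. Of 24 genes of glycolysis and lactate, 18 were called higher and 3 lower (median 0.38), from the enolase gene Eno1 at 1.08 to the lactate dehydrogenase gene Ldhb at -0.88. Of 17 genes of pyruvate dehydrogenase and the citric acid cycle, 8 were called higher and 1 lower (median 0.10), from Mdh2 at 0.35 to Suclg2 at -0.33. Of 14 genes of mitochondrial fatty acid oxidation, 4 were called higher and 5 lower (median -0.01), from Acads at 0.50 to Hadh at -0.45. Of 92 genes named as cytosolic ribosomal proteins, another set of short messages, 48 were called higher and 4 lower (median 0.21), from Rps27l at 0.84 to Rps6ka6, a kinase caught by the name pattern, at -1.1.

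With the length index as a covariate, fewer genes were called higher on day 14 in several of these lists, and in some more were called lower. Only the respiratory chain was left out of the index, so genes of these lists in its short or long class were part of it. How many were was not counted. The index is therefore not independent of the lists, least of all of the ribosomal lists of short messages, and no conclusion is drawn from their drop. Among all genes tested, 31.4% were called higher and 28.9% lower on day 14 with the index. The cytosolic ribosomal list had 20 genes called higher and 16 lower with a median of -0.01, and the mitochondrial ribosomal list 34 and 8 with a median of 0.10. The assembly factors outside the rule had 8 and 7 (median 0.02), import 9 and 0 (median 0.17), the genes for mitochondrial DNA transcription and replication 2 and 7 (median -0.11), the biogenesis regulators 4 and 7 (median -0.10) and the citric acid cycle 7 and 3 (median 0.05). Glycolysis and lactate had 17 and 3 (median 0.35). Other subunits and carriers (4 and 1), uncoupling proteins and nucleotide carriers (4 and 1) and fatty acid oxidation (4 and 5) had the counts they had without the index.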

How the data were processed

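RNA was measured in 75 mice, 1 library each. Per the labels, poly(A) RNA of the inferior lobe was prepared with a directional kit and sequenced for 75 cycles. The authors aligned the reads with STAR 2.7.0f to GRCm38 with Ensembl 96 and deposited raw counts per gene; the counting program, its use of strand and of reads with several matches are not given in the sources used here. All 75 columns were mapped to a mouse by name. Counts of the 375 pairs of mice within groups differed beyond sampling noise (chi-square over its degrees of freedom at least 3.88), so no library was counted as a repeat.

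Counts were fitted in R 4.3.3 with edgeR 4.0.16 (quasi-likelihood F test, TMM factors, filterByExpr, 1 mean per group over all 75 mice), adjusted by Benjamini-Hochberg over 16221 genes at 0.05. Errors are SE of the log2FC. The fit was tested on simulated data. Log2 CPM used a prior count of 2. Total counts of 9240291 to 14665247 limit low genes, and the floor was 3 counts. The alternatives were DESeq2 1.42.0, 3 other scalings, no filter, only the compared groups, and a replicate block. Chosen after seeing the data were the length index and fits without library 10 of day 28, library 3 of day 7 or 1 CTRL mouse. Genes of exonic length under 1500 and over 5000 bases entered the index.

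The members, gene lists and tests were chosen with earlier results of these data known. Genes named were the mitochondrial genes, the Sdh genes, subunits with tissue forms, the highest and lowest gene of each complex on days 14 and 42, and the highest and lowest called gene of each list. Others named (Atp5s, Atp5k, Atp5a1, Atp5b, Acta1, Myh6 and those called on all 6 days) were chosen after their values were seen. Sequences came from GENCODE transcripts (GRCm38) and RefSeq. Figures used Python 3.11.15 and matplotlib 3.10.9.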

Additional observations from a re-analysis of the deposited data

Results flagged for a closer look

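Chance places about 1 in 20 groups past the limit used for a single outlying mouse, and 21 of 129 groups of 7 to 10 mice passed it. On day 7 the highest mouse stood apart in the nuclear share of counts (0.859%) and in the CPM of Ndufa1 (53.6), Ndufa11 (48.1), Sdhc (141), Uqcrq (79.5), Cox4i1 (391), Cox4i2 (55.1), Cox5a (113), Cox6a1 (164), Cox6b1 (142), Cox7a2 (99.7), Cox7b (79.6), Ndufa4 (167), Atp5f1 (251), Atp5mpl (61) and mt-Nd6 (52.4). Library 3 has that nuclear share and the highest length index of the 75 mice. Without it, 63 nuclear genes were called higher and 2 lower on day 7, with a median log2FC of 0.27.

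In CTRL mice, the highest value of Ndufa4l2 (32 CPM) stood apart. On day 42 the same held for the lowest ratio of mitochondrial to nuclear counts (1.77), the highest Sdhb (75.8 CPM), the lowest Cox8a (62.3 CPM) and the lowest mt-Nd5 (1226 CPM).

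Day 42 differed from day 14 in 10 of the 40 named genes tested, by the test of that difference in the same edgeR fit. Some of these genes were named for their day 14 values, which favours a difference. The log2FC of day 42 against day 14 was -0.31 for Cox5a, -0.32 for Ndufa11, 0.24 for Ndufb2, -0.25 for Atp5g1, -0.26 for Sdhb, 0.14 for Sdha, 0.17 for Ndufaf7, -0.39 for Uqcrq, 0.55 for mt-Nd2 and 0.41 for mt-Nd4.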

How the results depend on the processing

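Across the alternatives the median log2FC of the nuclear genes stayed above 0 on all 6 days and that of the mitochondrial genes below 0, and 26 of 280 counts of called genes and 4 of 280 medians moved beyond the limit set (1.5 times for a count, 1 SD for a median). With the length index as a covariate the nuclear genes called in either direction were 43 on day 7, 36 on day 21, 4 on day 42 and 24 for day 42 against day 14, with medians of 0.115, 0.129, 0.0801 and 0.0535 for days 7, 14, 21 and 42. Cox7a2l turned from 0.06 to -0.14 on day 14 under the index (edgeR adjusted p = 0.00949). The cause was not tested. Without the filter on low counts the nuclear calls were 7 on day 35, 17 on day 42 and 7 for day 42 against day 14, and the mitochondrial calls 1 on day 35. With only the 2 groups compared, the nuclear calls were 24 on day 35 and 56 on day 42, and the mitochondrial calls 4 on day 7 and 5 on day 42. DESeq2 and the scaling without mitochondrial counts each called 2 mitochondrial genes on day 7.

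Leaving out single libraries gave 9 to 18 nuclear calls on day 35 (9 without CTRL mouse 4 or 10) and 18 to 38 on day 42 (18 and 19 without CTRL mouse 7 or 10). It gave 1 to 2 mitochondrial calls on day 7 (2 without CTRL mouse 2, 3 or 4, library 10 of day 28 or library 3 of day 7), 3 to 5 on day 28 (5 without library 10) and 1 to 4 on day 35 (1 without CTRL mouse 8). Of the 133 calls on named genes, 38 were lost with the length index and at most 13 under any other setting. The replicate numbers share only a number: deviations of 204 same-numbered pairs correlated at 0.006 on average (-0.538 to 0.569, 63 over 0.1). The fit with a replicate block called 2 mitochondrial genes on day 7 and moved no other count over 1.5 times.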
